A study of Mus musculus with 16 samples.

Results

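Chitinase-like, resistin-like, arginase and alternative activation genes of the mouse were followed through all the count tables. The chitinase-like genes were Chil3 and Chil4, the resistin-like genes Retnla and Retnlg, and the arginases Arg1 and Arg2. The mannose receptor gene Mrc1, the interleukin-4 receptor gene Il4ra and the PD-1 ligand gene Pdcd1lg2 completed the set. All were taken by name, 9 of 47643 genes in the tables, with Ensembl identifiers paired to symbols through GENCODE M21 on GRCm38. All cells came from wild-type C57BL/6 mice, and each of the 16 libraries was a 3′ mRNA library of total RNA read from one end. Alveolar macrophages grown ex vivo (mexAM), 1 culture each from mice 1, 2 and 4, were set beside fresh bronchoalveolar lavage cells (BALF), fresh peritoneal lavage cells (PLF) and bone marrow-derived macrophages (BMDM), each with libraries of the same 3 mice. A further 4 libraries were of alveolar macrophages cultured from 2 pooled lavages: pool 1 at passage 8 and at passage 13, pool 2 at passage 5 and at passage 10. Age, sex, culture medium, growth factors and the passage of the mexAM cultures are not given in the labels. No group was labelled as given a cytokine or another stimulus, so the levels are those of each cell preparation as it was collected.

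Alternative activation is the state that macrophages enter when interleukin-4 or interleukin-13 binds a receptor built on the interleukin-4 receptor alpha chain, the product of Il4ra, and Janus kinases then phosphorylate the transcription factor STAT6. STAT6 dimers bind palindromic sites near target genes, among which Arg1, Retnla, Chil3, Mrc1 and Pdcd1lg2 are the textbook examples in the mouse. Chil3 encodes Ym1, a secreted lectin without chitinase activity that resting alveolar macrophages also make, Chil4 encodes its close relative Ym2, and Retnla encodes the secreted protein RELM-alpha. Retnlg encodes RELM-gamma, a relative known from bone marrow and neutrophils.

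The upstream sequences of the paralog pairs are shown because they display how alike the pairs are and where a STAT-type palindrome lies in each. They are the RefSeq promoter windows of GRCm38.p6, trimmed to end before the first annotated exon base and read 5′ to 3′ on the strand of the gene: Chil3 on the minus strand at chr3:106167565-106167814, Chil4 on the minus strand at chr3:106219508-106219729, Retnla on the plus strand at chr16:48842359-48842550 and Retnlg on the plus strand at chr16:48872358-48872607. Capitals mark the palindrome, TTCNNNGAA in the chitinase-like pair and TTCNNNNGAA in the resistin-like pair.
Chil3: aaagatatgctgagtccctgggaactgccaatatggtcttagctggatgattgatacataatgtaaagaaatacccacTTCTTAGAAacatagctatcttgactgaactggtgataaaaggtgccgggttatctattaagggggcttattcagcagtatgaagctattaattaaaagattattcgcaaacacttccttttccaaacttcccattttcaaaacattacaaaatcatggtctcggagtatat
Chil4: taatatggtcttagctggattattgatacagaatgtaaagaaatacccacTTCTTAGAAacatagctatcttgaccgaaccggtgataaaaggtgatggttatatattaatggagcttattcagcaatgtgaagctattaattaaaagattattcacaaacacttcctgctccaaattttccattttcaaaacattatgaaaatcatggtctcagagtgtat
Retnla: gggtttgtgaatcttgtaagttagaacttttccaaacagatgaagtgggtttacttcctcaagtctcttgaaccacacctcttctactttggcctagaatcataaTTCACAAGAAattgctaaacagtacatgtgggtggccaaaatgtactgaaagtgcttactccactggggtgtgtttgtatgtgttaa
Retnlg: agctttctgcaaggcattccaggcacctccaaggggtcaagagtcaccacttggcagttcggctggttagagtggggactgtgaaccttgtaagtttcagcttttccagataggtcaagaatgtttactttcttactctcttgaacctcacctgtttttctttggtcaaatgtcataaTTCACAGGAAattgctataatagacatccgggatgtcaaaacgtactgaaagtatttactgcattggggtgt

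Chil3 and Chil4 shared 91.0% of their aligned bases upstream, with the same palindrome TTCTTAGAA beginning 172 bases before the RefSeq start of Chil3 and 200 bases before that of Chil4. Retnla and Retnlg shared 78.9%, and their palindromes, TTCACAAGAA 145 bases and TTCACAGGAA 72 bases before the RefSeq start, were not the same string. The RefSeq starts of Chil4, Retnla and Retnlg differ from their GENCODE M21 gene starts, so these distances are not comparable within a pair. The window of Pdcd1lg2 held TTCCTCAGAA 82 bases before its start, and those of Mrc1 and Il4ra held neither form. Of the 9 genes, 7 had an entry in the promoter table. Windows of 250 bases before the start were taken for all 27025 promoters. Of these, 7.18% held the form with a spacer of 3 bases and 5.86% the form with a spacer of 4. Each form reads the same on both strands, and how many of all windows held both forms was not counted. No member's window held both forms, so those of Chil3 and Chil4 had no match with a spacer of 4. A match is a string in the window and shows neither binding nor which STAT protein could bind.

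The same kinship reaches the 3′ ends that these libraries count. Among windows of 65 bases, the read length, in the last 500 bases of the transcripts, 21.1% of those of Chil3 matched another gene with at most 3 mismatches and 12.8% matched exactly, in Chil4 or in the pseudogene Gm6522. For Chil4 these shares were 31.2% and 18.3%. For Retnla 3.21% and for Retnlg 5.50% of the windows matched a relative, none of them exactly, and the other 5 genes had no match. The tables list 0 reads without a unique alignment in every library, so how reads from shared stretches were treated could not be seen. Chil4 had 8 counts over the 16 libraries and Gm6522 had 3, against 65564 for Chil3, and the Chil3 and Chil4 values are uncertain by the reads that the stretches they share could have moved or removed. With Chil4 added to Chil3, every Chil3 call and direction was the same, but 8 added counts could hardly have changed them. The sum does not show what became of reads from the shared stretches.

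Levels are given as CPM, counts per 1000000 counts in genes of the same library. Fold changes come from edgeR's quasi-likelihood test on the raw counts, fitted to all genes with sufficient counts (10011 in the comparisons among the cell types of mice 1, 2 and 4), and a gene was called at a Benjamini-Hochberg adjusted p under 0.05. Libraries held between 827791 and 2884679 counts in genes, and 1 count was worth up to 1.21 CPM. Of the 9 genes, 7 had enough counts to be tested among these cell types, while Chil4 and Pdcd1lg2 did not. The labelled cell types carried their defining markers: the summed level of 10 alveolar macrophage genes was 7008 to 8799 CPM in mexAM, 5643 to 6166 CPM in the pool cultures and 3860 to 5050 CPM in BALF, against 220 to 244 CPM in PLF and 111 to 275 CPM in BMDM, and Gata6, which defines resident peritoneal macrophages, had counts in PLF and was at 0 in all other libraries. BALF and PLF are labelled as lavage cells, with no sort named. In PLF all 8 genes of the B cell list had counts, with a summed level of 2415 to 2773 CPM, and so did all 7 of the mast cell list, at 1978 to 2184 CPM. In BALF all 5 erythroid genes had counts, with a summed level of 1.46 to 4.07 CPM in mexAM and 34.8 to 633 CPM in BALF, and 6 of the 8 lung epithelial genes, with 0.824 to 2.92 CPM in mexAM and 37.8 to 56.3 CPM in BALF. These levels move with every difference between mexAM and BALF given below, and their part in it was not tested. In such bulk samples fewer cells of a type and less RNA per cell cannot be told apart.

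**Figure D1:**
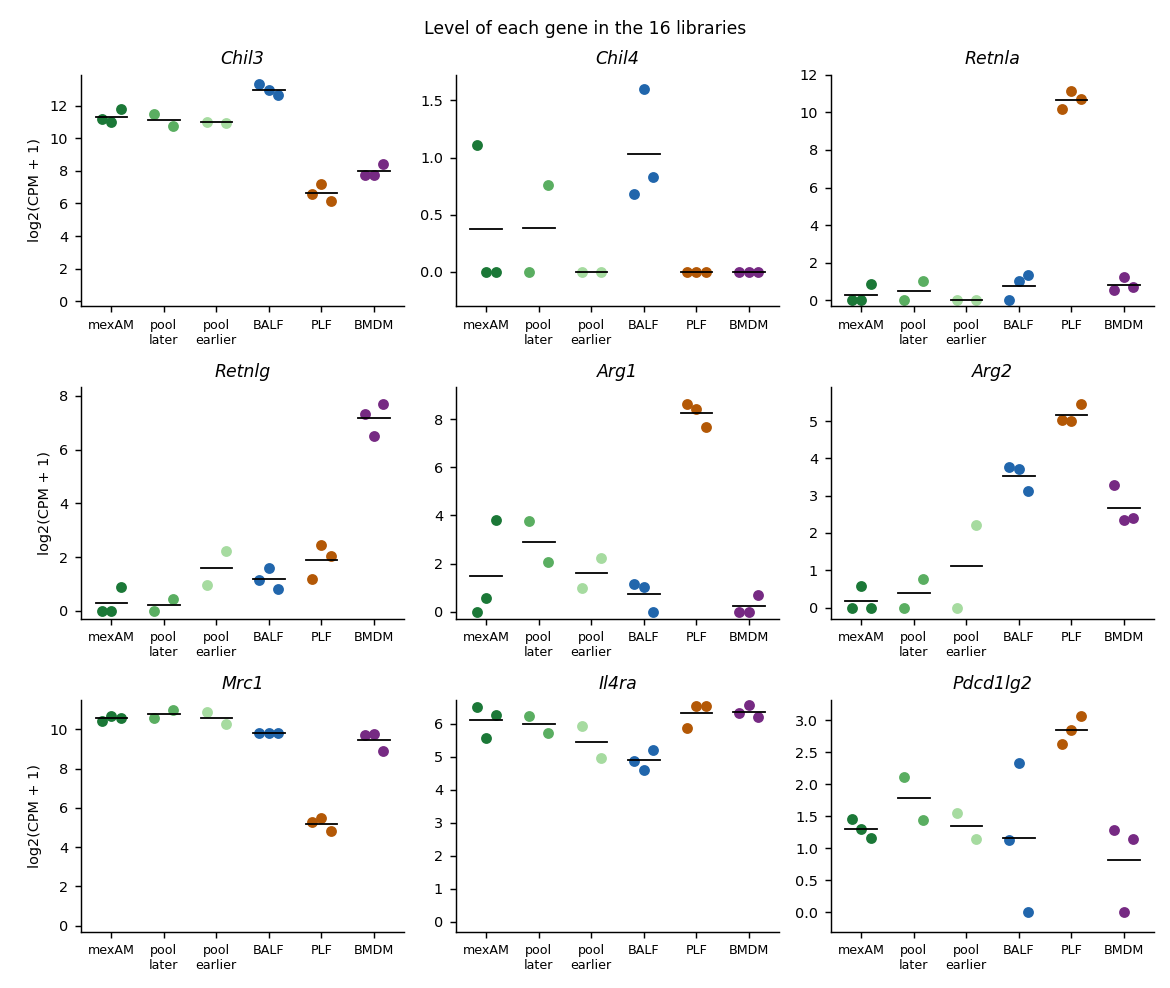
Level of the 9 genes in each of the 16 libraries, as log2(CPM + 1), with cell preparations along the horizontal axis; each point is a library and each line the mean of the points. Retnla and Arg1 are high in the 3 PLF libraries, Retnlg in the 3 BMDM libraries and Chil3 in the lung cells, fresh or cultured.

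The 6 comparisons among the cell types of mice 1, 2 and 4 ask how cultured alveolar macrophages stand to the fresh cells they come from and to macrophages of other origin. Between mexAM and BALF, 3 of the 7 tested genes were called, Il4ra higher and Chil3 and Arg2 lower in mexAM, where 30.0% of all tested genes were called, 15.2% higher and 14.8% lower. Between mexAM and BMDM 4 of 7 were called (44.6% of all genes, 21.5% higher and 23.0% lower), with Chil3 and Mrc1 higher and Retnlg and Arg2 lower in mexAM. Between mexAM and PLF 6 of 7 were called (57.9% of all genes, 28.4% higher and 29.6% lower), with Chil3 and Mrc1 higher and Retnla, Retnlg, Arg1 and Arg2 lower in mexAM. BALF against BMDM gave 5 of 7 (37.4% of all genes, 18.2% higher and 19.3% lower), with Chil3, Arg2 and Mrc1 higher and Retnlg and Il4ra lower in BALF. BALF against PLF gave 6 of 7 (40.3% of all genes, 19.5% higher and 20.8% lower), with Chil3 and Mrc1 higher and Retnla, Arg1, Arg2 and Il4ra lower in BALF. PLF against BMDM also gave 6 of 7 (36.5% of all genes, 1806 higher and 1847 lower), with Retnla, Arg1 and Arg2 higher and Chil3, Retnlg and Mrc1 lower in PLF. The comparisons share libraries and are not independent of each other.

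**Figure D2:**
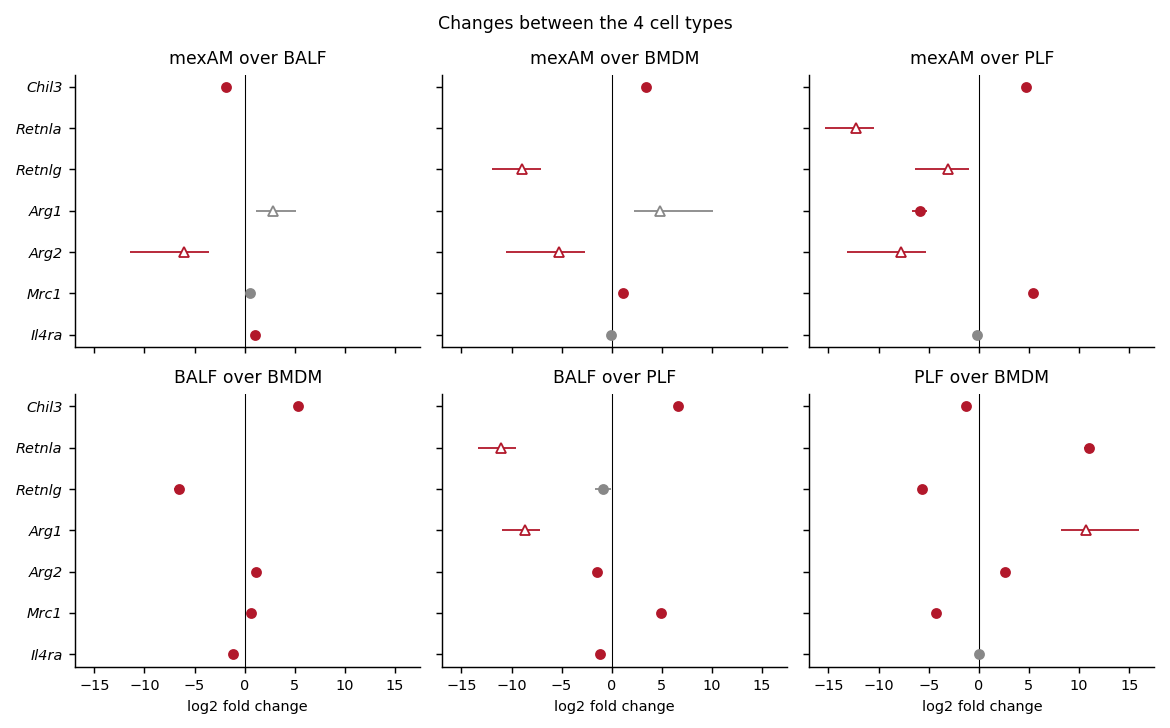
Log2 fold change of the 7 tested genes in the 6 comparisons among cell types, 3 libraries in each group. Circles are edgeR estimates with their standard error, triangles are log2 ratios of summed counts, scaled to depth, with their 95% counting interval where a group had 1 to 3 counts, red marks an adjusted p under 0.05, and a gene with 1 to 3 counts in one group and under 10 in the other is not drawn; Chil3 lies right of 0 for mexAM over BMDM and over PLF and left of 0 for mexAM over BALF.

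The ligands themselves were not detected. Il4 and Il13 had 0 counts in all 16 libraries, and so did Il13ra2, the decoy receptor. Over the 3 libraries of a group, 0 counts still allowed up to 0.483 CPM in mexAM and up to 0.760 CPM in BALF, by counting error alone.

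Il4ra, the signalling receptor chain used by both cytokines, was lower in fresh lung lavage than in mexAM, PLF and BMDM. Il4ra (ENSMUSG00000030748, chr7:125552120-125579474, plus strand) had 90.02, 45.7 and 75.8 CPM in mexAM of mice 1, 2 and 4, against 28.2, 23.3 and 35.5 CPM in BALF. The groups did not overlap, and the level was 2.07-fold higher in mexAM (log2 fold change 1.05 ± 0.27 SE, adjusted p = 0.00655). In PLF the same mice gave 57.8, 91.9 and 90.6 CPM, and in BMDM 78.3, 92.6 and 72.3 CPM. BALF was 2.28-fold lower than PLF (log2 fold change -1.19 ± 0.27 SE, adjusted p = 0.00178) and 2.26-fold lower than BMDM (log2 fold change -1.18 ± 0.27 SE, adjusted p = 0.00191). The order of the means was BMDM, PLF, mexAM and BALF, and no difference among the first 3 passed the test: mexAM stood at a log2 fold change of -0.13 ± 0.24 to BMDM and -0.14 ± 0.25 to PLF, and PLF at 0.01 ± 0.25 to BMDM (SE, adjusted p = 0.706, 0.657 and 0.98). Each of these small differences changed sign in at least 1 fit that left out a single library.

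Around Il4ra, 14 other genes of interleukin-4 and interleukin-13 receptor signalling were followed, 10 of them with enough counts. In mexAM against BALF 1 was higher and 3 were lower, where 30.0% of all genes were called, with a median log2 fold change of -0.36 against 0.01 over all genes. Il2rg, the common gamma chain that pairs with the Il4ra product in the type I receptor, averaged 20.8 ± 3.5 CPM in mexAM and 57.6 ± 10.6 CPM in BALF (SD, n = 3 each) and was lower in mexAM (log2 fold change -1.65 ± 0.30 SE, adjusted p = 0.000583 by edgeR). Ptpn1, a tyrosine phosphatase, averaged 240 ± 11 CPM in mexAM and 636 ± 64 CPM in BALF and was lower in mexAM as well (log2 fold change -1.61 ± 0.18 SE, adjusted p = 5.38e-06 by edgeR). Tyk2, the Janus kinase that binds the Il13ra1 chain, was higher in mexAM (36.8 CPM, against 15.8 CPM in BALF), and Socs1, a feedback inhibitor of cytokine receptors, was lower at 0.194 CPM in mexAM, against 2.62 CPM in BALF. Stat6 itself averaged 106 CPM in mexAM, 75.5 CPM in BALF, 72.5 CPM in PLF and 97.6 CPM in BMDM, and it was called in 1 of the 6 comparisons, mexAM over PLF (log2 fold change 0.58).

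The lung cells and PLF differed in the chains that pair with the Il4ra product. Il2rg averaged 20.8 CPM in mexAM and 57.6 CPM in BALF, against 211 ± 88 CPM in PLF, and was lower in both lung preparations (log2 fold change -3.27 for mexAM and -1.62 for BALF). Il13ra1, the partner in the type II receptor, averaged 36.8 CPM in mexAM and 43.4 CPM in BALF, against 9.53 ± 6.13 CPM in PLF, and was higher in both (log2 fold change 2.06 for mexAM and 2.51 for BALF). All 10 tested genes of this list other than Il4ra were called in mexAM against PLF, 4 higher and 6 lower, with a median of -1.0, where 57.9% of all genes were called. In BALF against PLF 1 was higher and 4 were lower (40.3% of all genes called), with a median of -0.31, and in PLF against BMDM 5 were higher and 3 lower (36.5% of all genes called), with a median of 0.52. Lymphocytes also express Il2rg; the summed level of the 8 T and NK cell genes was 85.0 to 90.6 CPM in PLF and 0.412 to 1.16 CPM in mexAM, and the part of other cells in the Il2rg level was not tested.

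Chil3 was highest in fresh lung lavage, lower in cultured alveolar macrophages, and lowest in peritoneal cells. The gene (ENSMUSG00000040809, chr3:106147554-106167564 of GRCm38, minus strand) had, in mice 1, 2 and 4, 2300.4, 2065 and 3528 CPM in mexAM, against 10476, 8145 and 6553 CPM in BALF. The groups did not overlap, and Chil3 was 3.70-fold lower in mexAM (log2 fold change -1.89 ± 0.29 SE, adjusted p = 1.25e-04, lower in 3 of 3 mice). BMDM gave 212, 216 and 340.1 CPM, so that mexAM stood 10.8-fold above BMDM (log2 fold change 3.43 ± 0.31 SE, adjusted p = 9.46e-08) and BALF 39.9-fold above it (log2 fold change 5.32 ± 0.34 SE, adjusted p = 2.61e-09). PLF gave 96.1, 144 and 70.9 CPM, which put mexAM 26.2-fold and BALF 97.0-fold above PLF. PLF was 2.43-fold below BMDM (log2 fold change -1.28 ± 0.30 SE, adjusted p = 0.00265 by edgeR). Each step in the order BALF, mexAM, BMDM, PLF thus passed the test. The BMDM libraries also carried the neutrophil genes given below, and PLF the B cell and mast cell genes given above. The part of such cells in the Chil3 levels was not tested.

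Chil4, the Ym2 gene (ENSMUSG00000063779, chr3:106201490-106219507, minus strand), stayed at the limit of detection. It had 2, 0 and 0 counts in mexAM of mice 1, 2 and 4, 1, 2 and 1 counts in BALF, 2 counts in pool 2 at passage 10, and 0 counts in every other library. Both groups of any comparison were at or near the floor of 3 counts, and no fold is given. The 5 libraries with a Chil4 count were all of lung origin, fresh or cultured, where Chil3 was high, and whether these reads came from Chil3 transcripts was not tested.

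Other members of the chitinase family stayed low or followed another pattern. Chil1, which encodes the chitinase-like protein YKL-40 homologue, averaged 0.137 CPM in mexAM, 0.457 CPM in BALF and 0.297 CPM in PLF, against 18.2 ± 4.0 CPM in BMDM (SD, n = 3), and was lower in each of these than in BMDM (adjusted p up to 2.46e-05 by edgeR). With 1, 2 and 1 counts in mexAM, BALF and PLF and 94 in BMDM, the ratio of BMDM over mexAM was 113 (95% counting interval 19.8 to 4513), that over BALF 36.0 (9.68 to 301) and that over PLF 78.1 (13.7 to 3116). Ctbs, the lysosomal chitobiase, was also lower in mexAM, at 13.2 CPM, against 28.4 CPM in BMDM (log2 fold change -1.02 ± 0.28 SE, adjusted p = 0.00698 by edgeR). Chit1 and Chia1, the enzymatically active chitinases, had 0 counts in mexAM, in BALF and in BMDM. Between mexAM and BALF, Chil1, Ctbs and Chid1 did not pass the test (adjusted p = 0.423, 0.302 and 0.466 by edgeR), and the other 5 family members were too low to be tested.

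Retnla (ENSMUSG00000061100, chr16:48842551-48844461, plus strand) was high in the peritoneal cells and close to 0 elsewhere. It had 0, 0 and 0.824 CPM in mexAM of mice 1, 2 and 4 and 0, 1.01 and 1.54 CPM in BALF, against 1144, 2223 and 1674 CPM in PLF. In BMDM it had 0.483, 1.37 and 0.613 CPM. Every PLF library stood far above every other library, and PLF was higher than BMDM by a log2 fold change of 10.96 ± 0.47 SE (adjusted p = 4.41e-11), with 6972 counts in PLF and 4 in BMDM. With 2 counts in mexAM the ratio of PLF over mexAM was 5049, with a 95% counting interval of 1397 to 41697 (edgeR adjusted p = 9.46e-12, lower in mexAM). Both counts came from mouse 4, and without it PLF stood at least 2049-fold above mexAM by the floor of 3 counts over the group. With 3 counts in BALF the ratio of PLF over BALF was 2140.4, with an interval of 732 to 10382 (edgeR adjusted p = 6.02e-11, lower in BALF); it was 1237 without mouse 1 and 4313 without mouse 4 of BALF. These intervals cover counting error alone. Between mexAM, BALF and BMDM the gene had 2 to 4 counts in each group, and no order can be read from them.

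Retnlg (ENSMUSG00000022651, chr16:48872621-48874496, plus strand) was high in the BMDM libraries. It had 0, 0 and 0.824 CPM in mexAM of mice 1, 2 and 4, 1.20, 2.03 and 0.772 CPM in BALF and 1.30, 4.46 and 3.08 CPM in PLF, against 160, 90.5 and 207 CPM in BMDM. PLF was 51.4-fold below BMDM (log2 fold change -5.68 ± 0.42 SE, adjusted p = 2.19e-08) and BALF 93.5-fold below it (log2 fold change -6.55 ± 0.48 SE, adjusted p = 1.32e-08). With 2 counts in mexAM and 801 in BMDM, the ratio of BMDM over mexAM was 482, with a 95% counting interval of 133 to 3985 (edgeR adjusted p = 9e-10, lower in mexAM). Both counts came from mouse 4, and without it BMDM stood at least 195-fold above mexAM by the floor of 3 counts over the group. The call between mexAM and PLF rested on 2 and 12 counts (ratio of PLF over mexAM 8.69, interval 1.93 to 79.9, adjusted p = 0.015 by edgeR) and was lost without PLF of mouse 2 (adjusted p = 0.0528); without mouse 4 of mexAM, PLF stood at least 3.53-fold above it by the same floor. The resistin-like pair thus went opposite ways between PLF and BMDM, and its sum was higher in PLF than in BMDM by a log2 fold change of 3.48.

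The summed level of neutrophil genes was highest in BMDM, as Retnlg was, but not every gene followed. In mexAM against BMDM, S100a8, S100a9, Ngp, Camp, Ltf, Csf3r and Mmp8 were lower, and Cxcr2 was higher (log2 fold change 3.83). In PLF against BMDM all of these genes were called lower save Csf3r. It did not pass the test (log2 fold change -0.57, adjusted p = 0.253 by edgeR). All 12 genes of the neutrophil list had counts in BMDM, with a summed level of 2105 to 5643 CPM. The list summed to 355 to 794 CPM in mexAM, 121 to 146 CPM in BALF and 53.9 to 105 CPM in PLF, and Elane and Fcnb, 2 defining genes of neutrophil precursors, were at 0 in all 3. Across the BMDM libraries of mice 1, 2 and 4, Retnlg at 160, 90.5 and 207 CPM stood in the same order as 9 of the 12 genes, such as S100a9 at 1122, 814 and 2277 CPM and Camp at 52.2, 32.9 and 87.0 CPM. The other 3, Mmp8 at 278, 184 and 222 CPM, Ly6g at 4.35, 2.74 and 3.68 CPM and Csf3r at 19.3, 17.8 and 17.2 CPM, were highest in mouse 1. The part of such cells in the Retnlg level was not tested. In mexAM the list's sum lay mostly in S100a8 (280 CPM) and Cxcr2 (246 CPM), while Ly6g, Mpo, Elane and Fcnb were at 0.

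Arg1 was, like Retnla, high in the peritoneal cells. Arg1 (ENSMUSG00000019987, chr10:24915221-24927484, minus strand), which breaks arginine down to ornithine and urea, had 0, 0.486 and 13.2 CPM in mexAM of mice 1, 2 and 4, against 396, 344 and 206 CPM in PLF. BALF gave 1.20, 1.01 and 0 CPM, and BMDM 0, 0 and 0.613 CPM. The PLF libraries stood far above all others, and mexAM was 60.4-fold below PLF (log2 fold change -5.92 ± 0.70 SE, adjusted p = 1.53e-05). With 3 counts in BALF the ratio of PLF over BALF was 408, with a 95% counting interval of 139 to 1982 (adjusted p = 2.08e-05 by edgeR, lower in BALF), and 708 without mouse 1 of BALF. With 1 count in BMDM the ratio of PLF over BMDM was 1601, with an interval of 287 to 63297 (adjusted p = 1.15e-05 by edgeR, higher in PLF). Of the 33 Arg1 counts in mexAM 32 came from mouse 4. The fold to PLF depends on it: without mouse 4 of mexAM the log2 fold change was -9.77, on 1 count, with a ratio of PLF over mexAM of 1172 (95% counting interval 210.1 to 46345). Without mouse 4 of BMDM, which held its only count, PLF stood at least 365-fold above BMDM by the floor of 3 counts over the group. The mexAM libraries passed the test against neither BALF (adjusted p = 0.242) nor BMDM (adjusted p = 0.0559).

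Arg2, the mitochondrial arginase (ENSMUSG00000021125, chr12:79130777-79156301, plus strand), was also highest in PLF, and it was close to 0 in cultured alveolar macrophages. It had 0, 0.486 and 0 CPM in mexAM of mice 1, 2 and 4, against 12.6, 12.2 and 7.72 CPM in BALF. With 1 count in mexAM and 43 in BALF, the ratio of BALF over mexAM was 67.6, with a 95% counting interval of 11.5 to 2732 (adjusted p = 7.73e-06 by edgeR, lower in mexAM in 3 of 3 mice). Without mouse 2 of mexAM, which held that count, BALF stood at least 15.1-fold above mexAM by the floor of 3 counts over the group. PLF gave 31.8, 31.2 and 43.2 CPM and BMDM 8.70, 4.11 and 4.29 CPM. PLF was 6.15-fold above BMDM (log2 fold change 2.62 ± 0.35 SE, adjusted p = 1.43e-05), and BALF was 2.74-fold below PLF (log2 fold change -1.46 ± 0.33 SE, adjusted p = 0.00199). BALF over BMDM (log2 fold change 1.16 ± 0.39 SE, adjusted p = 0.0272) did overlap, since BMDM of mouse 1 exceeded BALF of mouse 4, and 4 of the 6 fits without a single library no longer called it, those without mouse 1 or 2 of BALF and without mouse 2 or 4 of BMDM (adjusted p up to 0.119). The locus of Arg2 overlaps Vti1b on the opposite strand, which had 2216 counts over the 16 libraries, and whether counting used the strand is not given in the sources used here.

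The summed levels of other peritoneal cell lists were also highest in PLF. Beside the B cell and mast cell lists given above, the list of small peritoneal macrophages and dendritic cells had counts for all 10 genes in PLF, with a summed level of 1175 to 2815 CPM, against 5.84 to 9.88 CPM in mexAM, 161 to 187 CPM in BALF and 692 to 1025 CPM in BMDM. Within PLF, Retnla was lowest in mouse 1 and highest in mouse 2. A minority of the genes of each list stood in that order. These were 3 of 10 of the small macrophage and dendritic cell list, 3 of 8 of the B cell list, 1 of 7 of the mast cell list and 2 of 10 of the resident peritoneal macrophage list. Examples of the matching genes are H2-Aa at 1055, 2579 and 2327 CPM in mice 1, 2 and 4, the B cell gene Ms4a1 at 265, 407 and 315 CPM and Gata6 at 44.8, 61.5 and 53.0 CPM. Genes in another order include Alox15 at 635, 910 and 913 CPM and the mast cell gene Cpa3 at 675, 783 and 808 CPM. Arg1, highest in mouse 1, shared its order with the B cell gene Ighm alone among these lists. With 3 mice few orders are possible, so shared orders arise by chance and no relation can be tested. The part of these cells in the Retnla, Arg1 and Arg2 levels was not tested.

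Around the arginases, 17 further genes of arginine and polyamine metabolism were followed, 14 with enough counts among these cell types. Nos2, the competing nitric oxide synthase, had 0 counts in mexAM, BALF and BMDM and had 1 count in PLF. Slc7a2, the cationic amino acid transporter that feeds arginine to macrophages, averaged 804 ± 94 CPM in mexAM, 292 ± 49 CPM in BALF and 662 ± 453 CPM in PLF, against 7.53 ± 1.21 CPM in BMDM (SD, n = 3 each). It was higher in mexAM (log2 fold change 6.80 ± 0.62 SE), BALF (5.55 ± 0.61) and PLF (6.45 ± 0.62) than in BMDM, with adjusted p up to 9.28e-06 by edgeR. Slc7a1, the other main arginine transporter, averaged 24.8 ± 2.4 CPM in mexAM and 54.1 ± 15.7 CPM in BALF, against 259 ± 23 CPM in PLF, and was lower in both lung preparations than in PLF (log2 fold change -3.34 and -2.01).

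Among enzymes that use arginine or its product, Odc1, the ornithine decarboxylase that starts polyamine synthesis, averaged 10.5 CPM in mexAM, 19.9 CPM in BALF and 22.4 CPM in PLF, against 2.79 CPM in BMDM, and was higher in each than in BMDM (log2 fold change 1.92, 3.04 and 2.98). Gatm, which diverts arginine to creatine, averaged 0.275 CPM in mexAM, 3.28 CPM in BALF and 15.0 CPM in PLF, against 43.2 ± 7.0 CPM in BMDM, and was lower in each. With 2 counts in mexAM the ratio of BMDM over mexAM was 135 (95% counting interval 36.9 to 1119), and the log2 fold change to BMDM was -3.40 for BALF and -1.54 for PLF. Of the 14 genes, 4 were lower in mexAM against BALF and the other 10 were not called (28.6% called, 30.0% over all genes, median -0.35), 3 higher and 3 lower in mexAM against BMDM (42.9% called, 44.6% over all genes, median -0.09), and 2 higher and 7 lower in mexAM against PLF (64.3% called, 57.9% over all genes, median -0.83), beside all-gene medians of 0.01, 0.00 and -0.02. These shares lie near those over all genes.

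Mrc1, the mannose receptor CD206 (ENSMUSG00000026712, chr2:14229392-14332057, plus strand), was low in PLF and high in all other preparations. It had 1355, 1665 and 1543 CPM in mexAM of mice 1, 2 and 4, against 38.3, 44.6 and 27.1 CPM in PLF, a 43.0-fold difference (log2 fold change 5.43 ± 0.28 SE, adjusted p = 8.35e-11). BALF gave 885, 889 and 911 CPM, 29.2-fold above PLF (log2 fold change 4.87 ± 0.28 SE), and BMDM gave 824, 867 and 475 CPM. PLF was 19.3-fold below BMDM (log2 fold change -4.27 ± 0.27 SE, adjusted p = 3.16e-09). All 3 mexAM libraries stood above all 3 BMDM libraries, and mexAM was 2.23-fold higher than BMDM (log2 fold change 1.16 ± 0.23 SE, adjusted p = 4.74e-04).

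The place of Mrc1 in fresh lung lavage was less certain. The mexAM and BALF libraries did not overlap, with a log2 fold change of 0.56 ± 0.23 SE, but this missed the threshold (adjusted p = 0.0706); scaled to library totals alone it passed (log2 fold change 0.77, adjusted p = 0.0177). BALF over BMDM passed narrowly (log2 fold change 0.60 ± 0.23 SE, adjusted p = 0.0466). That call was lost in 5 of the 6 fits without a single library (without any 1 of the BALF libraries, or BMDM of mouse 1 or mouse 4), with adjusted p up to 0.201, and with library totals alone (log2 fold change 0.31). The order of the means was mexAM, BALF, BMDM and PLF.

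Ly75, which encodes the endocytic receptor DEC-205 of the mannose receptor family, was high in the lung cells. It averaged 437 ± 132 CPM in mexAM and 222 ± 41 CPM in BALF (SD, n = 3 each) and was higher in mexAM (log2 fold change 0.77 ± 0.26 SE, adjusted p = 0.033 by edgeR). PLF averaged 12.1 CPM and BMDM 4.99 CPM, and both lung preparations were higher than either. The family's other members, Mrc2 and Pla2r1, stayed under 1 CPM in every group mean.

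Pdcd1lg2, the gene of PD-L2 (ENSMUSG00000016498, chr19:29410919-29471161, plus strand), was low everywhere. It had 1.74, 1.46 and 1.24 CPM in mexAM of mice 1, 2 and 4, 1.20, 4.06 and 0 CPM in BALF and 1.45, 0 and 1.23 CPM in BMDM, against 5.19, 6.24 and 7.40 CPM in PLF. The 3 PLF libraries were the highest of the 16, on 27 counts in all. It did not pass the filter on low counts among these cell types, so no test was made there, and its locus overlaps A930007I19Rik on the opposite strand, which had 2714 counts over the 16 libraries. Cd274, the gene of the other PD-1 ligand, averaged 138 ± 59 CPM in mexAM, 213 ± 106 CPM in BALF and 162 ± 90 CPM in PLF, against 40.7 ± 5.8 CPM in BMDM (SD, n = 3 each), and was higher in each of the first 3 than in BMDM (log2 fold change 1.84, 2.65 and 2.00). Cd86, a costimulatory ligand, averaged 1.90 ± 1.25 CPM in mexAM, against 37.3 ± 16.8 CPM in BALF, and was lower in mexAM (log2 fold change -4.47 ± 0.50 SE, adjusted p = 7.73e-06 by edgeR). PLF averaged 255 CPM of Cd86 and BMDM 56.5 CPM.

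A wider list of 30 other genes linked to alternative activation showed that these genes did not move as a block. Of the 26 with enough counts, 7 were higher and 9 lower in mexAM against BALF (61.5% called, 30.0% over all genes), with a median log2 fold change of -0.18, or -0.28 with the 5 genes at 0 in a group set to the floor of 3 counts. In mexAM against PLF 8 were higher and 13 lower (57.9% of all genes called, median -1.05), in mexAM against BMDM 10 and 10 (44.6% of all genes called, median -0.09), and in PLF against BMDM 13 higher and 5 lower (36.5% of all genes called, median 1.83). Alox15, the lipoxygenase of peritoneal macrophages, averaged 819 ± 159 CPM in PLF and 0.984 CPM in BMDM, and was higher in PLF (log2 fold change 9.64 ± 0.48 SE, adjusted p = 2.47e-09 by edgeR). Ccl24, an eosinophil chemokine, averaged 596 ± 204 CPM in PLF and 2.38 CPM in BMDM, and Fn1, fibronectin, 8926 CPM in PLF and 42.7 CPM in BMDM (log2 fold change 7.97 and 7.74). The lectin gene Clec10a and the lipid receptor gene Trem2 went the other way, at 15.6 and 9.84 CPM in PLF and 92.0 and 332 CPM in BMDM (log2 fold change -2.55 and -4.98).

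Some genes of this list were higher in cultured alveolar macrophages than in fresh lavage, and others lower. Tfrc, the transferrin receptor, averaged 136 ± 59 CPM in mexAM and 15.6 ± 3.3 CPM in BALF (log2 fold change 2.92 ± 0.40 SE, adjusted p = 6.79e-05 by edgeR), and Klf4, a transcription factor, 583 CPM in mexAM and 124 CPM in BALF (log2 fold change 2.02). Fn1 averaged 6.40 ± 1.87 CPM in mexAM and 273 ± 12 CPM in BALF (log2 fold change -5.62 ± 0.36 SE, adjusted p = 1.04e-08 by edgeR). Clec7a, the beta-glucan receptor Dectin-1, averaged 1054 CPM in mexAM and 4508 CPM in BALF (log2 fold change -2.30), and Cd200r1, an inhibitory receptor, 39.0 CPM in mexAM and 131 CPM in BALF (log2 fold change -1.95). Pparg, the lipid-sensing nuclear receptor of alveolar macrophages, averaged 72.2 CPM in mexAM and 78.0 CPM in BALF and was not called.

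**Figure D3:**
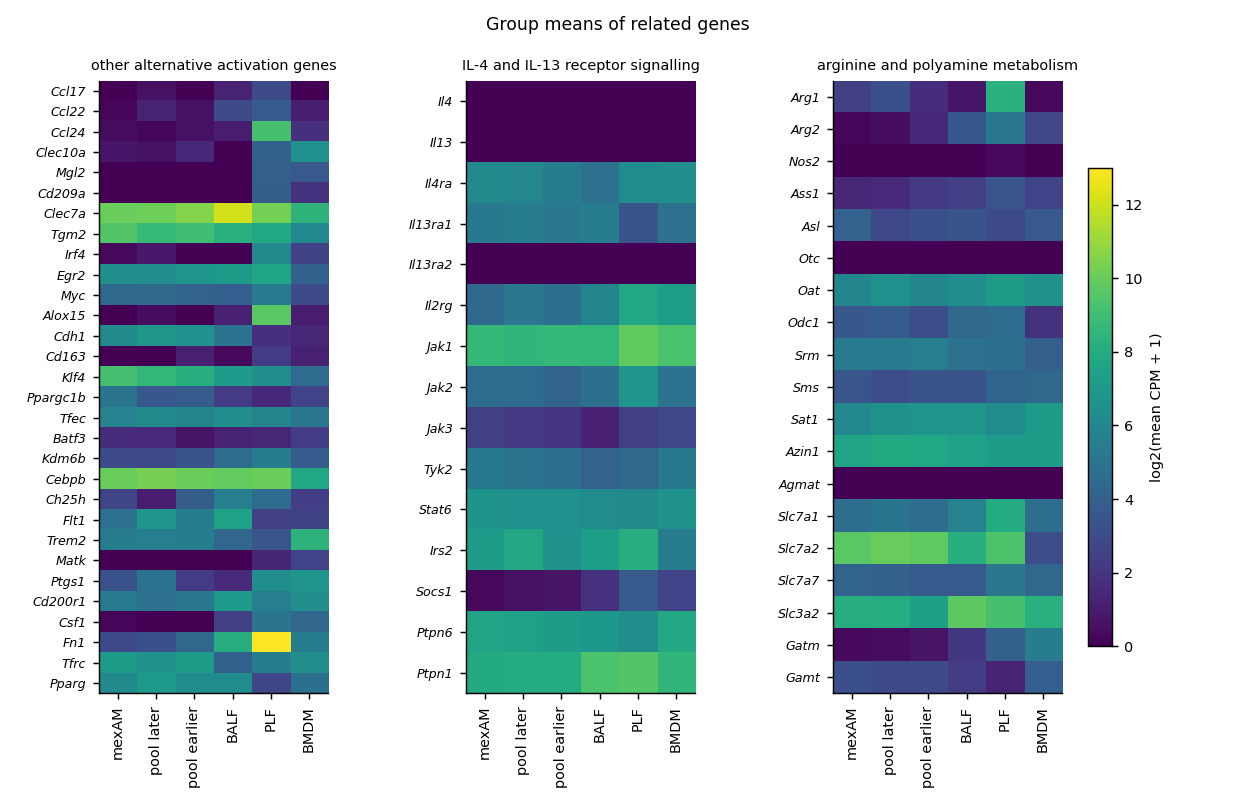
Mean level of the related genes in each cell preparation, as log2(mean CPM + 1), for the wider alternative activation list, interleukin-4 and interleukin-13 receptor signalling, and arginine and polyamine metabolism; columns run from mexAM through the pool cultures to BALF, PLF and BMDM. Alox15, Ccl24 and Fn1 are brightest in PLF, Clec10a and Trem2 in BMDM, and Il4 and Il13 are dark in all columns.

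No member was called between the cultures from pooled lavages and mexAM. Each pool entered once, as the sum of its passages, and 8 of the 9 genes could be tested, over 10602 genes. Pool cultures against mexAM gave 0 called members by edgeR, 0 at an unadjusted p under 0.05 and 0 by DESeq2, where 0.698% of all genes were called. Chil3 averaged 2174 ± 557 CPM in the pool cultures (SD, n = 2) and 2631 ± 786 CPM in mexAM (SD, n = 3), a log2 fold change of -0.26 ± 0.31 SE, and Mrc1 averaged 1765 ± 126 CPM in the pool cultures and 1521 ± 156 CPM in mexAM (0.22 ± 0.24 SE). Against BALF 3 of 8 were called (26.0% of all genes, 13.6% higher and 12.4% lower). Chil3 was 4.44-fold lower in the pool cultures (log2 fold change -2.15 ± 0.34 SE, adjusted p = 1.20e-04 by edgeR), and Arg2 14.7-fold lower, on 5 counts against 43 in BALF (-3.88 ± 0.63 SE). All 5 counts lay in pool 2: without pool 1 the log2 fold change of Arg2 was -3.14, and without pool 2 BALF stood at least 9.18-fold above the pool cultures by the floor of 3 counts, with the call kept in both. Mrc1 was higher (0.78 ± 0.24 SE, adjusted p = 0.0208 by edgeR), not called in 4 of 5 fits without a single pool or BALF library (all but that without mouse 4 of BALF), nor with the earlier passages alone (adjusted p up to 0.138). Il4ra averaged 57.7 ± 15.2 CPM in the pool cultures, against 29.0 ± 6.1 CPM in BALF, and missed the threshold (log2 fold change 0.77 ± 0.29 SE, adjusted p = 0.0579 by edgeR). It passed with library totals alone (0.97, adjusted p = 0.0203), with no filter on low counts (0.80, adjusted p = 0.0233) and with the later passages alone (0.83, adjusted p = 0.0438), and was 0.49 to 1.03 without single libraries or pools (adjusted p up to 0.398).

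Against the cells of other origin the pool cultures called the same members as mexAM did, save Retnlg against PLF. Against BMDM 4 of 8 were called (43.2% of all genes, 21.2% higher and 21.9% lower), Chil3 and Mrc1 higher and Retnlg and Arg2 lower in the pool cultures, with log2 fold changes of 3.17, 1.38, -7.38 and -2.71. The Arg2 call was lost with the earlier passages alone (-1.69, adjusted p = 0.108 by edgeR), and its log2 fold change was -1.97 without pool 1. Without pool 2 Arg2 had 0 counts left, and BMDM stood at least 5.06-fold above the pool cultures by the floor of 3 counts. The log2 fold change of Retnlg was -5.98 with the earlier passages alone and -8.95 with the later ones, and -8.25 without pool 2. Against PLF 5 of 8 were called (53.4% of all genes, 26.4% higher and 27.0% lower), Chil3 and Mrc1 higher (4.45 and 5.65) and Arg1 and Arg2 lower (-5.83 and -5.33). With the earlier passages alone Arg1 was at -7.09 and Arg2 at -4.33, and without pool 1 they were at -6.52 and -4.59. Without pool 2 Arg1 was at -5.25. Arg2 then had 0 counts in the pool cultures, and PLF stood at least 30.3-fold above them by the floor of 3 counts. Retnla had 3 counts in the pool cultures and 6972 in PLF, a ratio of PLF over pool cultures of 3385 with a 95% counting interval of 1158 to 16420; it was 2014 without pool 1, and at least 1372 by the floor of 3 counts without pool 2. Pdcd1lg2, which could be tested in this fit, was called in none of the comparisons of the pool cultures. It came nearest against PLF (log2 fold change -1.49 ± 0.65 SE, adjusted p = 0.0608 by edgeR), on 13 counts in the pool cultures and 27 in PLF. These comparisons use the same BALF, PLF and BMDM libraries as those of mexAM.

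Between passages, 5 numbers apart in each pool, 0 members were called by edgeR and 0 by DESeq2, 1 had an unadjusted p under 0.05 by edgeR (Retnlg, on 1 count at the later and 4 at the earlier passages), and 0.00950% of all 10527 genes were called. Chil3 had 2900.5 CPM at passage 13 and 2089.6 CPM at passage 8 of pool 1, and 1724 CPM at passage 10 and 1974 CPM at passage 5 of pool 2, so that the pools went opposite ways. Mrc1 had 1508 CPM at passage 13 and 1915 CPM at passage 8 of pool 1, and 2028 CPM at passage 10 and 1249 CPM at passage 5 of pool 2, again opposite. Il4ra was higher at the later passage in both pools, at 74.5 CPM at passage 13 against 59.7 CPM at passage 8 of pool 1 and 51.7 CPM at passage 10 against 30.2 CPM at passage 5 of pool 2, and did not pass the test (log2 fold change 0.38 ± 0.35 SE, adjusted p = 0.816 by edgeR). Arg1 had 19 counts at passage 13 and 1 at passage 8 of pool 1, and 9 at passage 10 and 3 at passage 5 of pool 2. Scaled to each library's depth this came to 12.7 CPM at passage 13 and 0.963 CPM at passage 8 of pool 1 (ratio 13.2, 95% counting interval 2.10 to 549.8), and to 3.12 CPM at passage 10 and 3.62 CPM at passage 5 of pool 2 (ratio 0.861, interval 0.215 to 4.94). A pool at a given passage is 1 library, and passage and culture time are not separable here.

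**Figure D4:**
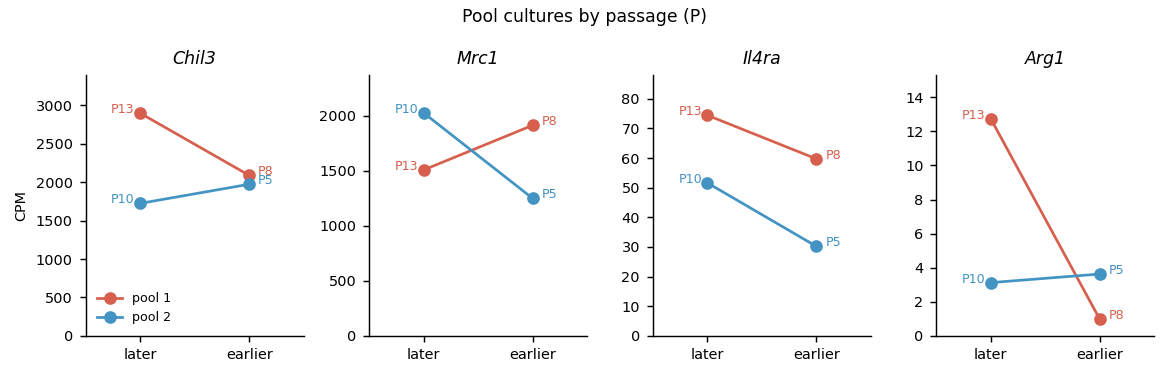
CPM of Chil3, Mrc1, Il4ra and Arg1 in the pool cultures, with the later passage left and the earlier passage right; each point is 1 library, lines join the passages (P) of a pool, and the vertical axes start at 0. The lines of Chil3, Mrc1 and Arg1 slope opposite ways in the pools, and those of Il4ra the same way.

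For the 7 members whose mean reached 10 CPM in at least 1 group, the 3 genes with the most similar pattern over the 16 libraries were taken by Pearson correlation of log2 CPM among 7400 genes. Libraries of a group share their cell type, and no p is given. Chil3 was closest to Hvcn1 (r = 0.963), a proton channel, Havcr2 (r = 0.961), which encodes TIM-3, and Ctsk (r = 0.956), cathepsin K. Ctsk averaged 182 CPM in mexAM and 1020.2 CPM in BALF, against 14.7 CPM in PLF and 15.2 CPM in BMDM. Retnla was closest to Gata6 (r = 0.995), Fcrla (r = 0.994), a B cell gene, and Gimap4 (r = 0.994), a lymphocyte gene. All 3 were low or at 0 outside PLF, as Retnla was.

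Retnlg was closest to S100a9 (r = 0.977), Sparc (r = 0.973), a matrix protein of stromal cells, and Camp (r = 0.970), a granule protein of neutrophils. Arg1 was closest to Smpdl3a (r = 0.956), Ackr3 (r = 0.955) and Blk (r = 0.934), a B cell kinase. Mrc1 was closest to Kctd12b (r = 0.986), Trpv2 (r = 0.985), a cation channel, and Rin2 (r = 0.976), and Arg2 was close to Ube2f (r = 0.970) and Ephx1 (r = 0.947). Il4ra had the least close neighbours, Gramd1b (r = 0.931), Acss1 (r = 0.920) and Sorl1 (r = 0.912). Gramd1b averaged 28.4 CPM in mexAM and 2.54 CPM in BALF, with 67.5 CPM in PLF and 70.1 CPM in BMDM, the same order of means as Il4ra.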

How the data were processed

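Total RNA was made into QuantSeq 3′ mRNA libraries with a UMI module from 150 ng RNA and read as 65-base single ends, per the labels' protocols. The authors deposited 1 table of raw counts per gene for each library, and the submitters' processing notes name GRCm38 and mm10. Aligner, counter, strand setting and any UMI collapsing were not given in the sources used here. The 47643 gene rows were kept and the 5 rows that name no gene left out. Among these, the line for reads outside genes held 10.6 to 29.9% of all counts of a library, the 5 rows included. CPM was computed from counts in genes.

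Tests used edgeR 4.0.16 in R 4.3.3 (filterByExpr, TMM, robust quasi-likelihood fits, Benjamini-Hochberg over all tested genes), with all groups of mice 1, 2 and 4 in one fit, another with each pool added as the sum of its passages, and another over all 16 libraries for the passages. Only the fit of mice 1, 2 and 4 was tested on simulated data, for mexAM against BALF. Far fewer genes were changed there than were called in the data, and the other fits were not simulated. Ratios between whole groups with 1 to 3 counts in a group carry exact 95% intervals of the counts. Values without single libraries or pools, or with 1 passage alone, mostly carry none. DESeq2 1.42.0, other scalings, no filter, a mouse block and fits without single libraries were alternatives. The labels give the same mice to the 4 cell types, so the mouse number pairs the libraries; the 18 same-mouse correlations of deviations from group means ran from -0.12 to 0.22 (median -0.02). No replicate pair agreed within sampling noise (chi-square per degree of freedom 2.64 or more), and whether the pool libraries are separate cultures is not stated, so their spread may be technical.

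Members and gene lists were chosen with earlier results of these data known. Named genes were the 9 members in every comparison, up to 4 called genes per list and comparison by largest change (higher group at 10 CPM or more), and the 3 nearest patterns per member, of which 1 is not reported here; Socs1, Stat6, Klf4, Clec7a, Cd200r1, Pparg, Clec10a in PLF and BMDM, Nos2, Gatm in PLF and BMDM, and genes at or near 0 were added after their values were seen. Floors are 3 counts over a group.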

Additional observations from a re-analysis of the deposited data

Results flagged for a closer look

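The pool cultures gave opposite directions between passages for 3 members. The log2 ratio of CPM of the later over the earlier passage of Chil3 was 0.47 in pool 1 and -0.20 in pool 2. For Mrc1 it was -0.34 in pool 1 and 0.70 in pool 2, and for Arg1 it was 3.73 in pool 1 and -0.22 in pool 2, on 19 counts at passage 13 and 1 at passage 8 of pool 1 (95% counting interval of the linear ratio 2.10 to 549.8) and on 9 at passage 10 and 3 at passage 5 of pool 2 (interval 0.215 to 4.94). Each value compares 1 library with 1 library, and the difference between the pools was not tested.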

How the results depend on the processing

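Under all alternatives together, 648 of 685 recomputed fold changes kept their direction and their side of the threshold, and 127 of 131 counts of called members stayed within 1.5 times. With mouse as a replicate block the number of called members was 3 in mexAM against BALF and 5 in BALF against BMDM, as without it, and the block changed no call of a member. BALF against BMDM was the unstable comparison: 5 members were called, 3 with library totals alone, and 3 to 4 without single libraries; the members lost were Mrc1 and Arg2. Mrc1 was also lost there with RLE size factors (0.57, adjusted p = 0.0553) and Arg2 with DESeq2 (adjusted p = 0.0643). Il4ra in pool cultures against BALF, not called, passed with library totals alone, no filter and the later passages alone (adjusted p = 0.0203, 0.0233 and 0.0438), and Arg2 in pool cultures against BMDM was lost with the earlier passages alone (adjusted p = 0.108). Changes of sign touched only log2 fold changes that had passed no test, apart from the sum of the resistin-like pair in PLF against BMDM (3.48): Il4ra in PLF against BMDM was -0.0195 with library totals, -0.0131 with no filter and -0.0831 to 0.175 without single libraries; Il4ra in mexAM without single libraries was -0.349 to 0.0985 against BMDM and -0.365 to 0.0910 against PLF, above 0 only without mouse 2 of mexAM; between passages Chil3 was -0.29 to 0.44 and Mrc1 -0.17 to 0.42 without single libraries. With library totals alone the median of all genes was 0.22 in mexAM against BALF, -0.31 in BALF against BMDM and -0.26 in BALF against PLF. It was 0.20 in pool cultures against BALF. In the main fits these medians were 0.01, -0.03, -0.01 and 0.00. The share of calls that were higher became 67.3, 30.7, 33.3 and 67.6% in these comparisons, against 50.6, 48.5, 48.4 and 52.4%. Calls over all genes in pool cultures against mexAM were 74, 380 with no filter, 160 with DESeq2, 11 with earlier and 188 with later passages alone, and 6 to 99 without single libraries. In pool cultures against BALF they were 2757, and 1604 to 2425 without single libraries. Between passages they were 1, 80 with no filter, 38 with DESeq2 and 0 to 4 without single libraries. The cause of these shifts was not tested. Values under 3 counts per group are limited by depth.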

Other observations

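Within the neutrophil list, Cxcr2, a chemokine receptor, and S100a8, a calcium-binding protein, were higher in mexAM than in BALF while the list's defining genes were not; these genes were singled out after their values were seen. Cxcr2 averaged 246 ± 121 CPM in mexAM and 9.04 ± 3.23 CPM in BALF (SD, n = 3 each; log2 fold change 4.60 ± 0.47 SE, adjusted p = 5.38e-06 by edgeR), and 18.1 ± 10.3 CPM in BMDM (log2 fold change of mexAM over BMDM 3.83 ± 0.42 SE, adjusted p = 2.91e-06 by edgeR). The pool cultures were higher than BALF as well (log2 fold change 4.12 ± 0.53 SE, adjusted p = 5.40e-05 by edgeR). S100a8 averaged 280 ± 159 CPM in mexAM and 46.2 ± 6.7 CPM in BALF (log2 fold change 2.42 ± 0.50 SE, adjusted p = 0.00317 by edgeR). The pool cultures did not pass the test against BALF for S100a8 (log2 fold change 1.68 ± 0.59 SE, adjusted p = 0.0524 by edgeR). Its partner S100a9 averaged 9.49 ± 4.43 CPM in mexAM and 19.0 ± 6.5 CPM in BALF and did not pass the test (adjusted p = 0.102 by edgeR), whereas in BMDM S100a8 and S100a9 averaged 1477 and 1404 CPM.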
